A study of Macrobrachium rosenbergii with 9 samples.

Results

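In the testis of the giant freshwater prawn, Macrobrachium rosenbergii, 173 of 21071 transcripts were abundant in testis libraries 1 and 3, scarce in androgenic gland and ovary, and nearly missing from testis library 2. They were chosen by measured values. A transcript had to reach at least 10 CPM in testis 1 and in testis 3. CPM is the estimated count of a transcript divided by the total of its library, times 1000000. The lower of these values had to be at least 8 times the highest CPM among the androgenic gland and ovary libraries. The CPM of testis 2 had to be under 1/16 of the mean of testis 1 and 3. The levels of these transcripts across the libraries are therefore a description of the choice and carry no test.

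The libraries came from adult prawns of the strain labelled CMr1, with no treatment given. There were 3 libraries of testis and 3 of androgenic gland, all from males, and 3 of ovary from females. Neither the number of animals behind the libraries nor their reproductive stage is in the labels, so the spread between libraries, on which each p-value rests, may be technical. Totals ran from 7142794 to 9868078 counts in testis, from 10409895 to 11177153 in androgenic gland and from 9924471 to 11231573 in ovary.

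The testis of decapod crustaceans makes sperm in lobules or tubules, where spermatogonia, spermatocytes and spermatids lie among somatic nurse cells, and its finished sperm have no flagellum. Ripening sperm pass into the sperm duct, along which the androgenic gland, the source of the male-determining insulin-like hormone, is attached. In animals at large, the transcripts of late germ cells are often very abundant in testis and rare in other organs. Whether that holds for these transcripts cannot be read from the files. The IDs carry no gene names and 0 of them were found among the 31758 reference genes, so no marker gene could be used to check the tissue label of any library, testis 2 included. The transcripts are described by ID, length, level and the words and numbers in the ID.

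Because of the choice, the group's share of counts was far lower in testis 2 than in testis 1 and 3. The 173 transcripts took 0.0737% of all counts in testis 2, against 36.1% in testis 1 and 23.7% in testis 3. The 95% Wilson interval of these shares ran from 0.0720% to 0.0754% in testis 2, from 36.09% to 36.15% in testis 1 and from 23.62% to 23.69% in testis 3, and covers counting error only. Testis 2 had the largest total of the testis libraries. Transcripts with any count numbered 17042 in testis 2, 16842 in testis 1 and 17251 in testis 3. The cause of the low share was not tested. In bulk tissue, fewer cells of a type and less RNA per cell cannot be told apart.

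The 173 transcripts were the bulk of the leading transcripts of testis 1 and 3. Among the 50 most abundant transcripts of each library, 0 were of this group in testis 2, 38 in testis 1 and 32 in testis 3. The best rank that any of them reached in testis 2 was 2566, whereas testis 1 held one at rank 1 and testis 3 one at rank 3. Their median was 1.52 CPM in testis 2, with quartiles of 0.463 and 4.19 CPM. In testis 1 the median was 739 CPM, with quartiles of 213 and 1948 CPM, and in testis 3 it was 423 CPM, with quartiles of 135 and 1191 CPM. In every androgenic gland and ovary library the median was 0. All 173 had more than 3 counts in testis 1 and in testis 3, against 137 in testis 2, where 28 had above 0 and up to 3 counts and 8 had none.

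**Figure D1:**
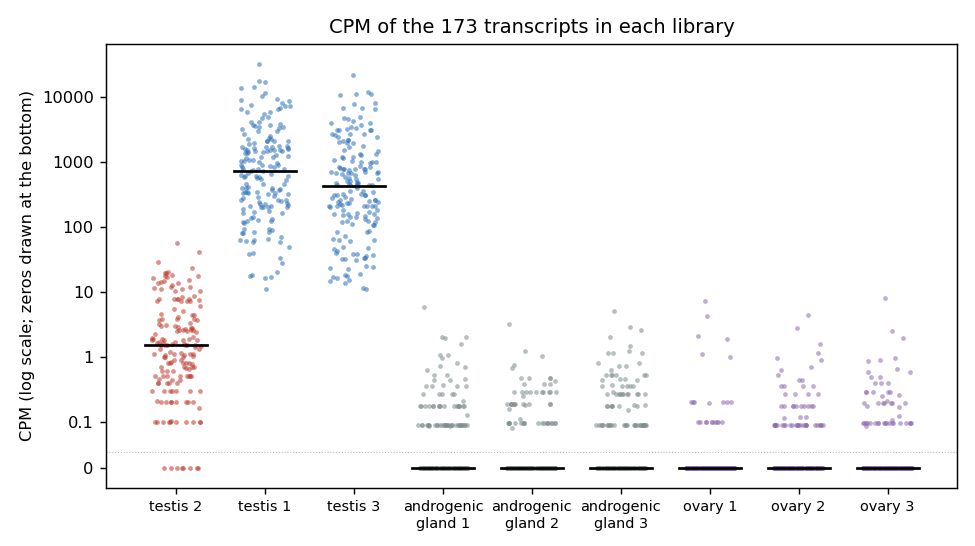
CPM of each of the 173 transcripts (points) in the 9 libraries on a log axis, with zeros drawn at the bottom and the median as a black line. The medians are 1.52 CPM in testis 2, 739 in testis 1 and 423 in testis 3, and 0 in each androgenic gland and ovary library.

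The most abundant of them was transcript_HQ_Male_transcript5868/f657p0/1346, of 1346 bases. It had 57.7 CPM in testis 2, 31975 CPM in testis 1 and 21402 CPM in testis 3. In the glands its level was 2.06, 1.06 and 2.88 CPM for libraries 1 to 3, and in the ovaries 0, 0.712 and 0.887 CPM. Testis 2 was thus at 0.216% of the mean of testis 1 and 3, yet above every androgenic gland and ovary library. Next came transcript_HQ_Male_transcript8133/f2p0/1233, of 1233 bases, with 41.6 CPM in testis 2, 17661 in testis 1 and 10994 in testis 3. Androgenic gland 1 to 3 were at 0.953, 0.480 and 1.17 CPM, and ovary 1 to 3 at 0, 0.356 and 0.123 CPM. Both transcripts had testis 1 above testis 3 and testis 2 far below them. Neither was called between androgenic gland and ovary, where 55% of 19448 transcripts tested were called. Their adjusted p was 0.131 and 0.0974 (quasi-likelihood test of edgeR).

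Testis 2 was also far below testis 1 and 3 in the 8 transcripts at ranks 3 to 10. They stood at 2.58 to 29.4 CPM in testis 2, against 7423 to 16885 CPM in testis 1 and 768 to 11908 CPM in testis 3. None exceeded 1.61 CPM in an androgenic gland library or 0.591 CPM in an ovary library, and all had 0 counts in ovary 1. Their lengths ran from 713 to 2601 bases. The group was top-heavy: by the mean CPM of testis 1 and 3, the first transcript held 8.93% of its total, the first 10 held 37.2% and the first 17 held 50%. That mean spanned 13.1 to 26689 CPM with a median of 624. It was 1000 CPM or more for 66 transcripts and under 100 CPM for 28.

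A longer transcript collects more counts at the same number of molecules, so levels were also compared per kilobase. Per kilobase the mean of testis 1 and 3 spanned 8.31 to 19828 CPM with a median of 514, and transcript_HQ_Male_transcript5868/f657p0/1346 and transcript_HQ_Male_transcript8133/f2p0/1233 kept the first and the second place. Of the first 10 by CPM, 7 were also among the first 10 per kilobase. The shortest, at 393 bases, had 1.11 CPM in testis 2, 33.4 in testis 1 and 73.9 in testis 3. The longest, at 3005 bases, had 0.304 CPM in testis 2, 378 in testis 1 and 207 in testis 3.

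The loss in testis 2 was close to proportional across the group. The median ratio of testis 2 to the mean of testis 1 and 3 was 0.230%, with quartiles of 0.166% and 0.317%, and 135 of the 173 ratios lay between 0.1% and 0.5%. For the 137 transcripts with more than 3 counts in testis 2, the mean of testis 1 and 3 was 18.6 to 2505 times the level in testis 2, with a median of 407 times. For the 8 transcripts without a count in testis 2, whose mean in testis 1 and 3 was 13.1 to 1645 CPM, the bound was at least 43.2-fold to at least 5410-fold lower in testis 2. This bound uses a floor of 3 counts in that library, or 0.304 CPM.

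The median ratio varied little with abundance. Sorted by the mean of testis 1 and 3, the 44 least abundant had a median ratio of 0.271% and the next 43 a median of 0.218%. The following 43 had a median of 0.206% and the 43 most abundant a median of 0.249%. The spread narrowed with abundance: the quartiles were 0.172% and 0.482% in the 44 least abundant and 0.194% and 0.294% in the 43 most abundant. Transcripts under 1000 bases had a median ratio of 0.226% (42 transcripts) and those of 2000 bases or longer one of 0.236% (11 transcripts). Levels within the group went together across the testis libraries, and in part in androgenic gland as well. Across the 173 transcripts, log2(CPM + 0.1) in testis 2 had a Pearson correlation of 0.78 with testis 1 and of 0.89 with testis 3, while testis 1 and testis 3 had 0.83. With testis 2, androgenic gland 1 to 3 had 0.53, 0.54 and 0.64, and ovary 1 to 3 had 0.08, 0.33 and 0.35. Transcripts are not independent replicates and share their library, so these values only describe the libraries.

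**Figure D2:**
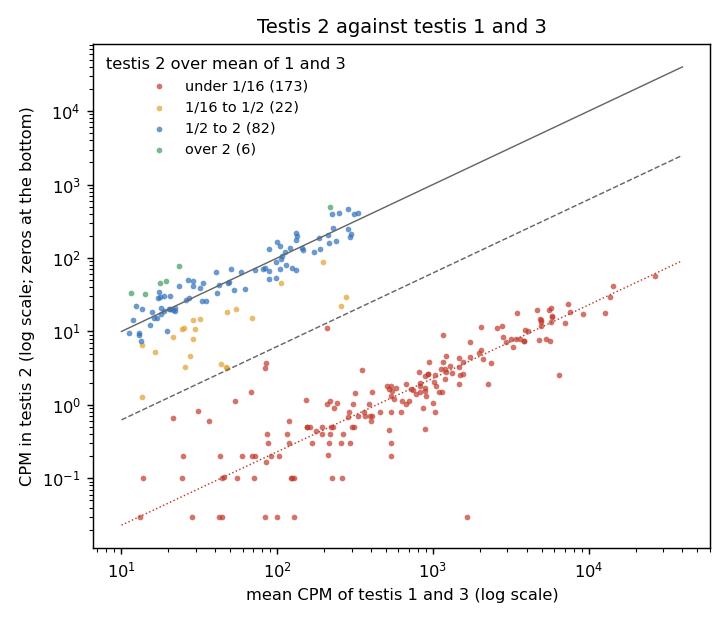
CPM in testis 2 against the mean CPM of testis 1 and 3 for all 283 testis-enriched transcripts, both axes on log scales, with zeros at the bottom. The solid line marks equal levels, the dashed line 1/16 and the dotted line the median ratio of 0.230%, along which most of the 173 transcripts lie.

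Few transcripts lay near the limit that defined the group. Without the condition on testis 2, the rule gave 283 testis-enriched transcripts, of which the 173 were 61.1%. Another 82 were steady, with testis 2 at 1/2 to 2 times the mean of testis 1 and 3, while 22 lay from 1/16 to under 1/2 and 6 above 2 times. Of the 173, 165 had a ratio under 1%. The 2 transcripts just inside the limit had ratios of 5.39% and 4.44%. The first of them had 11.3 CPM in testis 2, 167 in testis 1 and 252 in testis 3, and the second 3.75, 49.5 and 119 CPM. The 2 just outside had 6.64% and 7.12%, with 3.17 and 3.32 CPM in testis 2, 37.7 and 35.3 CPM in testis 1 and 57.9 and 58.0 CPM in testis 3. The 8 transcripts at 1% or more were of low abundance, with 21.5 to 210 CPM as their mean in testis 1 and 3. Of these 8, 5 exceeded 1 CPM in some androgenic gland or ovary library, as did 8 of the 165 others.

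**Figure D3:**
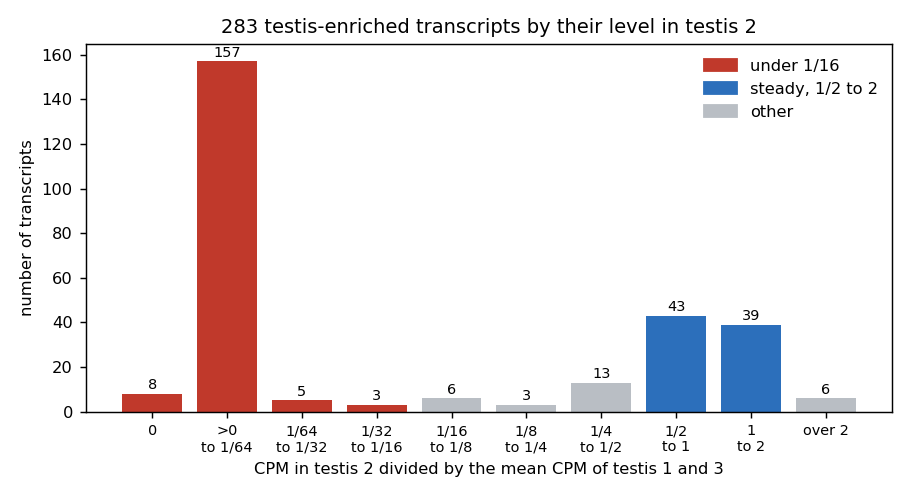
Number of testis-enriched transcripts by the ratio of testis 2 to the mean of testis 1 and 3. The red bars hold the 173 transcripts, 157 of them in 1 bar, and the blue bars the 82 steady ones, with few transcripts in between.

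The same criteria found few transcripts when another testis library took the place of testis 2. With testis 1 as the low library 1 transcript met them, and with testis 3 also 1. Each of these swaps required testis 2 to reach 10 CPM. Most of the group could not pass, since its upper quartile in testis 2 was 4.19 CPM. The swaps thus left most of the group out and are no even contrast with testis 2 as the low library. In androgenic gland, with testis and ovary as the other tissues, the numbers were 1, 7 and 2 for libraries 1 to 3 as the low one. In ovary they were 21, 15 and 24.

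Steady transcripts were a minor part of the testis RNA. The 82 took 0.780% of the counts in testis 2, 0.654% in testis 1 and 0.824% in testis 3, and their median was 51.2 CPM in testis 2, 41.3 in testis 1 and 58.5 in testis 3. Because shares of a library sum to a fixed total, the missing share of the 173 by itself raises the CPM of all else in testis 2. Of 7112 transcripts at 10 CPM or more in testis 1 and 3, the 6939 outside the group had a median ratio of testis 2 to the mean of testis 1 and 3 of 0.907. With the counts of the 173 taken out of every library it was 0.638. The limit of 10 CPM applied to testis 1 and 3 and not to testis 2, which tends to lower both ratios. For the steady transcripts the median ratio was 0.984, and 0.693 after that removal, with 68 of the 82 still at 1/2 to 2.

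The low level in testis 2 also touched transcripts that were present in the other tissues. Among those at 10 CPM or more in testis 1 and 3, 255 were under 1/16 of their mean in testis 2, and 82 of these were outside the group because a gland or ovary library was too high. These 82 took 0.0222% of the counts in testis 2, 0.877% in testis 1 and 1.11% in testis 3. For 18 of them an androgenic gland library, and for 47 an ovary library, exceeded the lower of testis 1 and 3. By their share of counts in testis 1 and 3 they were much smaller than the 173.

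Testis 1 and testis 3 differed from each other too. Of the 173, 138 were higher in testis 1 and 35 in testis 3, and the median log2 ratio of testis 1 to testis 3 was 0.73, with quartiles of 0.18 and 1.34. The steady transcripts had a median log2 ratio of -0.32 with quartiles of -0.67 and 0.01, and 23 of the 82 were higher in testis 1. Testis 1 and 3 lay within 2-fold of each other for 100 of the 173 and for 75 of the 82. They were over 8-fold apart for 10 of the 173, with 8 higher in testis 1 and 2 higher in testis 3, and for 0 of the 82.

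These 10 included some of the abundant ones. A transcript of 736 bases had 0 counts in testis 2, 3243 CPM in testis 1 and 46.0 CPM in testis 3. Another of 1530 bases had 19.5 CPM in testis 2, 9018 in testis 1 and 270 in testis 3. The opposite case was a transcript of 1201 bases with 19.5 CPM in testis 2, 143 in testis 1 and 10921 in testis 3. Together the 10 had 72.9 CPM in testis 2, 28891 CPM in testis 1 and 14216 CPM in testis 3. Counts with decimals mean that reads were divided among similar transcripts, and several IDs may belong to 1 gene. The part of such division in the differences between testis 1 and 3 was not tested.

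**Figure D4:**
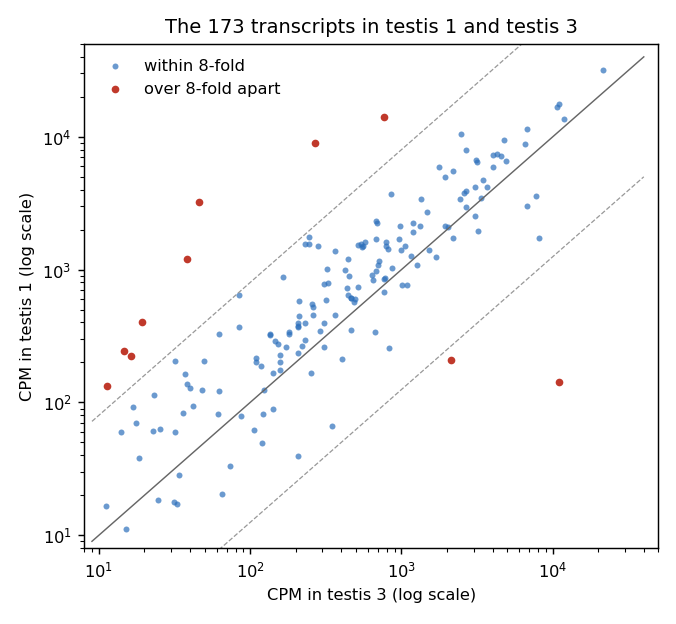
CPM in testis 1 against testis 3 for the 173 transcripts on log axes, with the line of equality and dashed lines at 8-fold. Most points lie above the line of equality, with 138 higher in testis 1, and the 10 red points are over 8-fold apart.

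What the selection did not use was the wording of the ID and the length. The word Male stood in the ID of 172 of the 173 (99.4%), against 65 of the 82 steady transcripts (79.3%) and 6297 of all 21071 (29.9%). Among testis-enriched transcripts it stood in 72.7% of the 22 at 1/16 to under 1/2 and in 83.3% of the 6 above 2 times. A further 82 transcripts were under 1/16 in testis 2 but too high in a gland or ovary library. Of these, 28 (34.1%) had the word, so it did not go with a low testis 2 alone. The sources used here do not say which RNA the word refers to, so it may not be independent of tissue. The 1 ID with the word Female, named here because it was the only one, was transcript_HQ_Female_transcript18236/f16p0/1173. It was among the least abundant, with 0.654 CPM in testis 2, 18.4 in testis 1 and 24.6 in testis 3. The mark LQ stood in 3 IDs of the group (1.73%), 1 of the steady (1.22%) and 244 of all (1.16%).

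Long transcripts were few among the 173. Their median length was 1307 bases, with quartiles of 1024 and 1540, against 1975 bases in the steady transcripts, 1636 bases in all transcripts with the word Male and 1511 bases in all transcripts. The 22 testis-enriched transcripts at 1/16 to under 1/2 had a median of 1397 bases, and 31.8% of them reached 2000 bases. In the 6 above 2 times the median was 1466 bases, and 16.7% reached 2000 bases. Only 11 of the 173 (6.36%) reached 2000 bases, against 40 of the 82 steady transcripts (48.8%) and 30.1% of all transcripts. Under 1000 bases the shares were 24.3%, 7.32% and 26.9%. The group's share of long transcripts was thus below that of all transcripts and its share of short ones near it. These differences were not tested, and how far length sets which transcripts pass a CPM limit was not tested either. Within the group length and mean CPM of testis 1 and 3 had a Spearman correlation of 0.21 across the 173 transcripts.

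The IDs also hold a number after the letter f. In IDs of this form, as long-read isoform pipelines write them, that number usually counts the full-length reads behind a transcript, which the files themselves do not state. Its median was 6 in the 173, against 3 in the steady transcripts, 3 in all transcripts with the word Male and 2 in all transcripts. Levels were unlike too: the median in testis 1 was 739 CPM in the 173, 41.3 in the steady and 3.90 in all transcripts. The part of level in the difference in this number was not tested. The f number was 10 or more for 65 of the 173 (37.6%), for 6 of the 82 steady (7.32%) and for 9.76% of all. The highest value, 657, belonged to transcript_HQ_Male_transcript5868/f657p0/1346, and the next highest were 341 and 307. Across the 173 transcripts this number had a Spearman correlation of 0.29 with the mean CPM of testis 1 and 3. The second most abundant, transcript_HQ_Male_transcript8133/f2p0/1233, had the lowest value that occurs, 2, as did 47 of the 173.

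**Figure D5:**
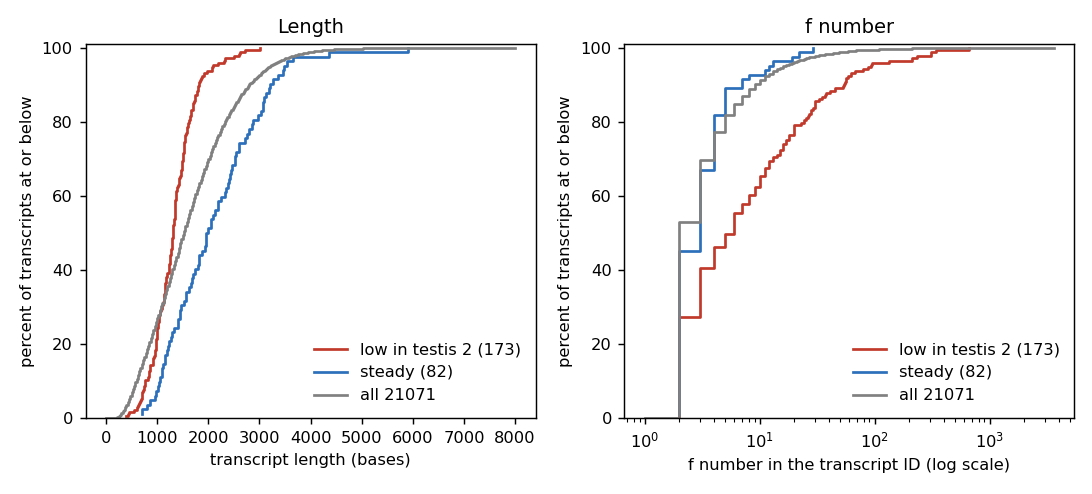
Cumulative percent of transcripts by length in bases (left) and by the f number of the ID on a log axis (right), for the 173 transcripts (red), the 82 steady ones (blue) and all 21071 (grey). The red curve ends at 3005 bases and has a median of 1307, and its f number has a median of 6 against 2 for all transcripts.

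Outside testis the 173 were close to the limit of detection. Together they summed to 737 CPM in testis 2. Androgenic gland 1 to 3 had sums of 31.4, 18.1 and 37.2 CPM, and ovary 1 to 3 sums of 20.1, 21.7 and 25.3 CPM. Androgenic gland 2 was the lowest of the glands, though the choice kept the group scarce in all of them. With 0 counts in all androgenic gland libraries there were 62 transcripts, with 0 in all ovary libraries 88, and with 0 in all of both 41. A count of 0 in 1 of these libraries allows a level of 0.267 to 0.302 CPM. The highest value of any of the 173 in these tissues was 7.98 CPM, and 13 of them passed 1 CPM there, against 103 in testis 2. In testis 2 157 of the 173 were higher than in each androgenic gland and ovary library, where the choice had capped their level. The share over all transcripts was not taken, so nothing is read from this number. CPM here is without TMM scaling, whose factors were 0.392 to 0.589 in androgenic gland and 1.27 in testis 2.

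These traces were uneven. The 4 highest transcripts of a library held 38.0%, 34.8% and 33.8% of the group's counts for glands 1 to 3, and 77.5%, 46.1% and 53.1% for ovaries 1 to 3. Without the 4 that had the most CPM over both tissues, singled out after the values were seen, the sums of the other 169 were 21.6, 12.9 and 27.5 CPM for glands 1 to 3, against 5.54, 11.8 and 12.4 CPM for ovaries 1 to 3. In ovary 1 only 23 of the 173 had any count, against 59 in ovary 2 and 53 in ovary 3.

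The calls of testis over each other tissue are part of the choice and are given as background, with nothing read from them. By the quasi-likelihood test of edgeR at an adjusted p under 0.05 and at least 2-fold, 142 of the 173 were called higher in testis than in androgenic gland, where 23.8% of 19448 transcripts tested were called higher and 13.7% lower. Against ovary 166 of the 173 were called higher in testis, where 17.6% were called higher and 24.4% lower. Leaving out testis 2, all 173 were called in both comparisons, at 24% and 15.9% of 19111 tested called higher. Leaving out androgenic gland 1, 2 or 3 in turn left 83, 84 and 82 called against androgenic gland, where 21.3%, 21.7% and 20.6% of all tested were called higher in testis. The median fitted log2 fold change was 10.74 over androgenic gland and 11.43 over ovary. With the 62 and 88 transcripts without a count in the other tissue at their bound of 3 counts over that tissue, the medians were 10.44 and 11.60. Over all transcripts with more than 3 counts in either tissue they were 0.38 and -0.07 at that bound. Under scaling to library size alone 8619 transcripts were called higher and 573 lower in testis against androgenic gland, in place of 4638 and 2673.

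Which of the other tissues held more of these traces was not used in the choice. In androgenic gland over ovary 1 of the 173 rose and 1 fell (edgeR, adjusted p under 0.05 and at least 2-fold), where 18.3% of 19448 tested were called higher and 36.7% lower. Both shares of the group, 0.578%, were far under those of all transcripts. For each transcript, however, all 9 libraries shared 1 estimate of the spread, and the choice set testis 2 far below testis 1 and 3. The low shares are therefore not read as a result about the group. Without testis 2 they were 23.1% higher and 1.73% lower. By edgeR 3 of the 173 had an unadjusted p under 0.05, as did 62.9% of all tested. DESeq2 called 21 higher (12.1%) and 1 lower (0.578%), where 19.2% of all tested were called higher and 39.2% lower. Depth limits this comparison, since 109 of the 173 had 3 counts or fewer in both tissues, 41 of them with none. Of all 19448 tested, 7804 had a fitted log2 fold change above 0 and 11502 one below. Over the whole group the fitted log2 fold change was above 0 for 104, below for 28 and 0 for the 41 without a count. Its median was 0.72, or 0.76 with those above 3 counts in 1 tissue and at 0 in the other (4 at 0 in androgenic gland and 13 in ovary) at their bound, against -0.62 and -0.57 for all 19448 tested. Scaling to library size alone gave 91 above 0 and 41 below, against 3935 and 15371 of all tested. The median was then 0.28, against -2.05 for all. The 64 with more than 3 counts passed that limit through whichever tissue was higher, and under TMM scaling 55 of them were above 0 and 9 below. Of all tested, 19048 passed it, with 7635 above 0 and 11413 below. Library size alone called 1249 of all transcripts higher and 11249 lower in androgenic gland, in place of 3555 and 7137.

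The transcript that rose was the one with the word Female. transcript_HQ_Female_transcript18236/f16p0/1173 had values of 0.357, 0.256 and 0.468 CPM for androgenic gland 1 to 3, against 0 counts for every ovary library. With a floor of 3 counts for the pooled ovary libraries, its level in androgenic gland was at least 3.78-fold higher. The fitted log2 fold change of 3.15 had a rough SE of 0.94 (quasi-likelihood test of edgeR, Benjamini-Hochberg adjusted p = 0.0276). The adjusted p lay between 0.000635 and 0.0649 over 14 alternatives and passed in 7 of them. It rested on 11.9 estimated counts in all and was lost when any 1 androgenic gland or ovary library was left out, with log2 fold changes of 3.07 to 3.27 and adjusted p of 0.0511 to 0.0645 (edgeR).

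The transcript that fell was transcript_HQ_Male_transcript9679/f2p0/998, of 998 bases. It had 0 counts in androgenic gland 1 to 3, against 7.25, 2.76 and 7.98 CPM in ovary 1 to 3, so the tissues did not overlap. With a floor of 3 counts for the pooled gland libraries, it was at least 64.1-fold lower there. In testis it had 3.14 CPM in testis 2, 79.6 in testis 1 and 87.5 in testis 3, so ovary 1 and ovary 3 exceeded testis 2. The fitted log2 fold change of -5.47 had a rough SE of 1.48 (edgeR, adjusted p = 0.0196), and it was called in all 16 alternatives, at an adjusted p of 2.87e-05 to 0.0457.

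The number of calls between androgenic gland and ovary also moved with testis 2, a library of neither tissue that entered the same fit. Without testis 2, 40 of the 173 were called higher in androgenic gland (23.1%), where 20% of 19111 tested were called higher. In the same fit 3 were called lower (1.73%), where 38.3% were called lower.

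In pattern over the 9 libraries the group was tight. Of the 100 transcripts with the highest Pearson correlation of log2(CPM + 1) with transcript_HQ_Male_transcript5868/f657p0/1346, 90 were of the 173, and the lowest correlation among those 100 was 0.98. Over the 173 its median was 0.98 and its lowest value 0.82. The selection fixed most of this likeness, which is given as a description over 9 libraries.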

How the data were processed

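The authors deposited 1 table with an estimated count per transcript and library, called a read count in the file header, and the transcript lengths. By library, 46.87% to 64.34% of these values were whole numbers, and they were not scaled to depth. The submitters' processing notes name Bowtie 0.12.2, DESeq 1.10.1 and mm8, a mouse build, without roles. The sources used here do not give how reads were counted, the strand setting or the origin of the transcripts. Per the labels' protocols the RNA was column-purified and the libraries were directional.

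CPM used column totals. For tests, counts were rounded and transcripts with a total of at least 15 over the 9 libraries were kept (19448, all 173 among them). The filterByExpr function of edgeR, an alternative, kept 103 of the 173, those with at least 1.01 CPM in testis 2. Libraries were scaled by TMM factors (1.23 to 1.54 in testis, 0.392 to 0.589 in androgenic gland, 1.46 to 1.58 in ovary). All 9 libraries entered 1 fit with a mean per tissue in edgeR 4.0.16 (R 4.3.3), with a prior count of 1, 6 residual degrees of freedom and two-sided quasi-likelihood tests. A call needed an adjusted p (Benjamini-Hochberg over all transcripts) under 0.05 and a log2 fold change of at least 1 in size. The rough SE divides the log2 fold change by the root of the F statistic. The fit was tested on simulated data. DESeq2 1.42.0, other scalings and filters, a replicate block and leaving out each library were alternatives.

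Same-numbered testis and androgenic gland libraries departed from their tissue means together, at correlations of 0.418, 0.402 and 0.264 for numbers 1 to 3 across 19448 transcripts, a pairing seen in the data and not given by the labels. The ovary numbers gave -0.131 to 0.0226 with either male tissue and do not pair.

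The transcripts, comparison classes and tests were chosen with earlier results of these data known. IDs named were the 2 most abundant of the 173 and those called between androgenic gland and ovary, at most 2 in each direction. Other transcripts were described without an ID.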

Additional observations from a re-analysis of the deposited data

How the results depend on the processing

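The rule gave 173 transcripts, and every alternative of it tried here stayed within 1.5 times of that number, with 173 to 175 when an androgenic gland or ovary library was left out. Neither the median ratio in testis 2 under TMM scaling nor the count of all transcripts called in each comparison, both directions together, moved by more. By direction, scaling to library size alone moved counts further. In androgenic gland over ovary 1249 were called higher and 11249 lower, in place of 3555 and 7137. In testis over androgenic gland the numbers were 8619 and 573, in place of 4638 and 2673. Leave-one-out fits called 82 to 173 of the group for testis over androgenic gland (32.1% to 37.4% of all tested in either direction), 119 to 173 for testis over ovary (33.2% to 42.5%) and 1 to 43 for androgenic gland over ovary (49% to 58.3%). Against ovary, filterByExpr gave 103, all that passed it, and 46.1% of all. The main count of 2 for androgenic gland over ovary (55% of all) became 1 under scaling to library size alone (64.3% of all) and under filterByExpr (59.5%), and 22 with DESeq2 (58.5%). With only these tissues it was 15 of 25 tested, the others having too few counts, and 59% of all. It became 9 with the replicate block (52.7% of all), where the numbers do not pair these tissues. The block changed no other count by over 1.5 times. For these moves the cause was not tested. Depth limits all values in androgenic gland and ovary, where most of the group had 3 counts or fewer.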
